A study of Mus musculus with 9 samples.

Results

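The genes described here are 7 of cholesterol synthesis, its control and uptake: Hmgcs1, Sqle, Insig1, Idi1, Fdps, Fdft1 and Srebf2. They were chosen by name, and a gene was kept where its Ensembl identifier was among the rows of the deposited table. Of the 7 genes, 6 were listed among 11802 genes in all, and Fdps was not analysed here. RNA on tagged ribosomes was sequenced from mouse white adipose tissue. In RiboTag mice Cre activity replaces the ribosomal protein Rpl22 by an HA-tagged form, and an antibody to HA then captures the ribosomes of the cells in which Cre acted. All 9 libraries came from mice carrying Pdgfb-iCreERT2, an inducible Cre driven by a promoter active in endothelial cells, together with the Rpl22HA allele. The 4 libraries called WT below carried Pdgfb-iCreERT2:Rpl22HA with Mfn2 present in endothelial cells, and the 5 called KO carried Pdgfb-iCreERT2:Mfn2ideltaEC:Rpl22HA with endothelial Mfn2 labelled absent. Mfn2 encodes mitofusin 2, a protein of the outer mitochondrial membrane that takes part in mitochondrial fusion and in contacts with the endoplasmic reticulum. Age, sex, diet and the induction of Cre are not stated in the labels, and the labels number biological replicates without naming animals, so every p-value measures the spread between these libraries.

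Cells make cholesterol from acetyl-CoA through the mevalonate pathway. Hmgcs1 makes HMG-CoA, Idi1 and Fdps build the isoprenoid chain, Fdft1 joins farnesyl units into squalene, and Sqle oxidises squalene on the way to the sterols. The pathway is controlled in the membrane of the endoplasmic reticulum: SREBP-2, the product of Srebf2, is carried to the Golgi and cleaved when sterols are low, and the released part enters the nucleus and raises transcription of the synthetic enzymes and of genes of cholesterol uptake. Insig1 encodes a protein that holds SREBP and its escort in the endoplasmic reticulum when sterols are plentiful, and is itself a target of SREBP. Endothelial cells also take up lipoprotein cholesterol from the blood, which they face directly.

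SREBP-2 acts through the promoters of these genes, so the stretch before the transcription start is shown for the members with an entry among the RefSeq promoter sequences (GRCm38.p6). Of the 7 genes, 4 matched; Sqle, Fdps and Fdft1 did not. Each window is the 250 bases before the RefSeq start, on the plus strand, in lower case. The RefSeq start is not the gene start given with the levels further on, which is from GENCODE M21: the windows of Insig1, Idi1 and Srebf2 run past that start, and the Hmgcs1 window ends before it. Capitals mark TCACNCCA, a form of the sterol regulatory element in which N is any base, and CCAAT, the box bound by NF-Y, each on either strand (CCAAT reads ATTGG on the other). Insig1 lies at chr5:28071162-28071411, Idi1 at chr13:8885356-8885605, Hmgcs1 at chr13:119690101-119690350 and Srebf2 at chr15:82147019-82147268.
Insig1: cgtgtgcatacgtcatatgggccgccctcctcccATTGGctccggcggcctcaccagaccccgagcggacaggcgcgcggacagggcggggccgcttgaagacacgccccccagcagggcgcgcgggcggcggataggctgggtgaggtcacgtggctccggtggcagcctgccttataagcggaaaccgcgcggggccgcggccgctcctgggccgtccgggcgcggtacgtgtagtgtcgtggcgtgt
Idi1: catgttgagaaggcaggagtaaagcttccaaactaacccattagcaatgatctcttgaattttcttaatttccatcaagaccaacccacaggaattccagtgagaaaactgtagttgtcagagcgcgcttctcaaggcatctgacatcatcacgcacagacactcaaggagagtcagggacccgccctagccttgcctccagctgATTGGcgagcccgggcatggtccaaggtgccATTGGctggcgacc
Hmgcs1: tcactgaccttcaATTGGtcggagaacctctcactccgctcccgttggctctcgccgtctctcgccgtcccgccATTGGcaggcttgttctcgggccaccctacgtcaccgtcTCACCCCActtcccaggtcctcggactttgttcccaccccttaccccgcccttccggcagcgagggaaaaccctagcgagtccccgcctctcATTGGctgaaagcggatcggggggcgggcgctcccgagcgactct
Srebf2: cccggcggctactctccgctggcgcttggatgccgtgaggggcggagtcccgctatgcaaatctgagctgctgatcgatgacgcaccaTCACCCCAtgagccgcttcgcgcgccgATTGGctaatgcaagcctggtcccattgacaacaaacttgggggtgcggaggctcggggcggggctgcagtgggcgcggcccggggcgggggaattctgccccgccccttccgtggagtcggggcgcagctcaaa

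The Hmgcs1 window held TCACNCCA from 137 to 130 bases before the start, and the Srebf2 window held it from 162 to 155 bases before the start. Of 32851 RefSeq promoter windows of the same length, 3.67% held these letters on either strand. The longer form TCACNCCAC, which overlaps the shorter one, was in Hmgcs1 alone among the 4 and in 1.05% of all windows. CCAAT was found in all 4 windows, 3 times in Hmgcs1, 2 times in Idi1 and once each in Insig1 and Srebf2; 33.8% of all windows held it. The E-box CACGTG was found in Insig1 alone, from 101 to 96 bases before the start, against 6.02% of all windows. The letters TCACNCCA were chosen after the windows had been seen, and a match describes the sequence, not a bound site.

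**Figure D1:**
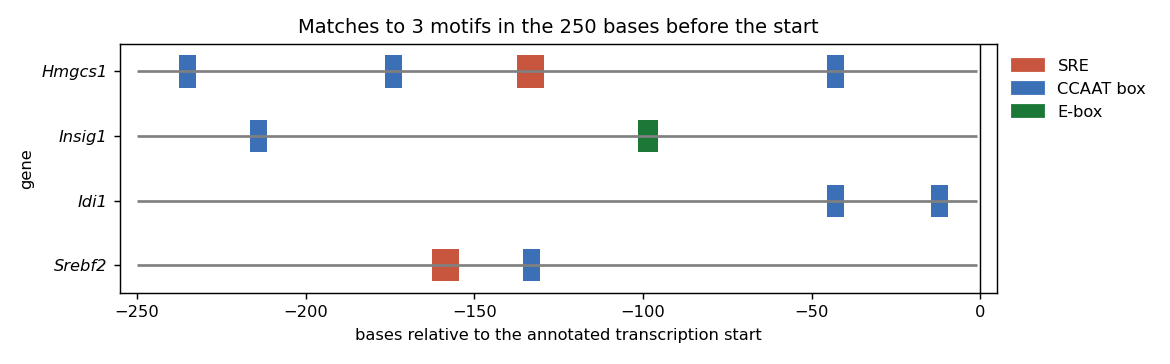
Positions of the searched motifs in the promoter windows of 4 members, with bases before the RefSeq start on the horizontal axis and 1 gene a row. TCACNCCA appears in Hmgcs1 and Srebf2, and CCAAT in all 4 windows.

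The libraries differed in a way that touches every level below. Listed reads per library ran from 1034753 to 3829356. The 2 mitochondrial ribosomal RNAs took 47.5% to 64.8% of them in WT replicates 1 to 3, 13.9% in WT replicate 4 and 12.8% to 25.2% in KO. WT replicate 4 therefore stood with the KO libraries in this share. The median gene had 6.3 to 16.15 CPM (counts scaled to a common library total) in WT and 16.72 to 23.92 CPM in KO, a shift of 0.98 on the log2 scale, so each change is given both on the deposited scale, log2(CPM + 1), and relative to the library median, after that median was subtracted in each library. On the deposited scale limma placed 32.0% of all 11802 genes higher in KO and 0.203% lower, at an adjusted p under 0.05, and the median change of all genes was 1.10. On the relative scale 0.0339% were higher and 0.0763% lower, with a median change of 0.12. Mfn2, the targeted gene, was 36.1 ± 15.0 CPM in WT (SD, n = 4) against 66.7 ± 37.0 CPM in KO (SD, n = 5), a shift on the relative scale of -0.16 (adjusted p = 0.898, limma); its level in libraries labelled KO was not below that in WT, the deleted exons are not given, and directions below rest on the labels.

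Among the control genes of the pathway, Srebf2 varied most within WT and Insig1 most within KO. Srebf2 (ENSMUSG00000022463, GRCm38 chr15:82147181-82205379, plus strand) was measured at 9, 13.9, 10.5 and 44.7 CPM in WT replicates 1 to 4 and at 41.6, 21.5, 39.0, 32.2 and 45.5 CPM in KO replicates 1 to 5. WT replicate 4 lay among the KO libraries, and the other WT libraries lay below all of them. The means were 19.5 ± 16.9 CPM (SD, n = 4) and 36.0 ± 9.43 CPM (SD, n = 5). The deposited change of 1.10 (SE 0.49) equals that of the median gene and did not pass the test (adjusted p = 0.0735, limma). Without WT replicate 4 it was 1.58 and passed (adjusted p = 0.00797, limma), when 50.1% of all genes also did. The relative change was 0.12 (95% interval -0.64 to 0.89, adjusted p = 0.925, limma).

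Insig1 (ENSMUSG00000045294, chr5:28071363-28078662, plus strand), the sterol-sensing anchor, had 3.6, 3.56, 2.1 and 3.8 CPM in WT and 9.11, 1.91, 10.1, 25.8 and 34.0 CPM in KO. The WT libraries lay close together, at 4 to 9 reads each, while KO replicate 2 lay below all of them and KO replicates 4 and 5 stood far above. The means were 3.27 ± 0.784 CPM (SD, n = 4) and 16.2 ± 13.2 CPM (SD, n = 5). Insig1 did not pass on the deposited scale (change 1.57, SE 0.65, adjusted p = 0.0564, limma), and it passed without KO replicate 2 (adjusted p = 0.0184) or without WT replicate 4 (adjusted p = 0.0476). Its relative change was 0.60 (95% interval -0.69 to 1.88, adjusted p = 0.753, limma). The groups overlapped on both scales, and an exact two-sided permutation test over the 126 splits of 9 libraries into 4 and 5 gave p = 0.127 for the CPM.

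**Figure D2:**
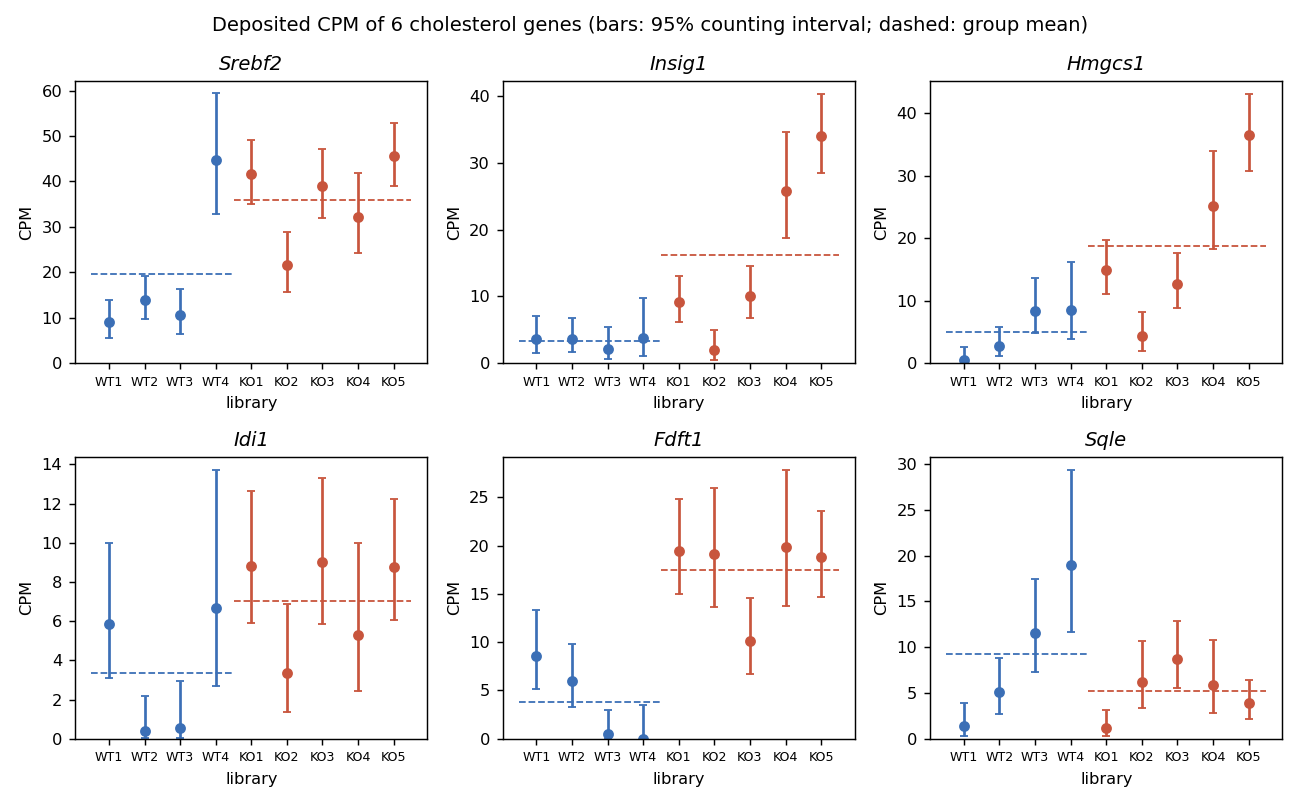
CPM of each listed member in every library (points, with bars for the 95% counting interval), WT in blue and KO in red, with each group mean dashed. Fdft1 is the member whose 5 KO libraries all lie above the 4 WT libraries, and Sqle the member whose mean is lower in KO.

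Of the enzymes that make mevalonate and isoprenoids, Hmgcs1 rose on the deposited scale and Idi1 did not pass the test. Hmgcs1 (ENSMUSG00000093930, chr13:119690379-119708260, plus strand) was measured at 0.45, 2.77, 8.4 and 8.55 CPM in WT and at 14.9, 4.3, 12.6, 25.2 and 36.5 CPM in KO. Only KO replicate 2 fell within the WT range. The means were 5.04 ± 4.08 CPM (SD, n = 4) and 18.7 ± 12.4 CPM (SD, n = 5), and the deposited change was 1.79 (SE 0.64, adjusted p = 0.0336, limma). The lowest value rested on 1 read, whose exact Poisson 95% interval of 0.0114 to 2.51 CPM covers counting error only. That call did not survive leaving out WT replicate 1 (adjusted p = 0.162), WT replicate 2 (0.0669), KO replicate 3 (0.0551), KO replicate 4 (0.0799) or KO replicate 5 (0.0962), each in turn. With the share of mitochondrial ribosomal RNA as a covariate the deposited change was 0.34 (adjusted p = 0.877, limma), and with the endothelial markers as a covariate it was -0.08 (adjusted p = 0.987, limma). Relative to the library median the change was 0.81 (95% interval -0.39 to 2.01, adjusted p = 0.614, limma).

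Idi1 (ENSMUSG00000058258, chr13:8885501-8892451, plus strand), which isomerises isopentenyl diphosphate, had 5.85, 0.4, 0.53 and 6.65 CPM in WT and 8.8, 3.34, 9.02, 5.27 and 8.75 CPM in KO. The WT libraries split, with 1 read each in replicates 2 and 3 and 13 and 7 reads in replicates 1 and 4, and the upper pair overlapped KO. The means were 3.36 ± 3.36 CPM (SD, n = 4) and 7.04 ± 2.59 CPM (SD, n = 5). The deposited change of 1.23 (SE 0.68) did not pass the test (adjusted p = 0.131, limma) but did without WT replicate 4 (1.64, adjusted p = 0.0495). The relative change was 0.26 (95% interval -1.08 to 1.59, adjusted p = 0.912, limma) and turned to -0.16 without WT replicate 2 and to -0.08 without WT replicate 3, and under quantile normalisation it was -0.04. Gm13502 is a listed near copy of Idi1, identical over 684 bases, to which reads could be split. It averaged 0.37 CPM in WT, below 1.77 CPM, the lowest mean of any listed gene, so it is listed only through its KO reads. A sum with such a copy leans towards KO and is no independent support for a rise there. With the copy's reads added, the sum was 3.73 ± 3.54 CPM in WT against 11.5 ± 4.92 CPM in KO, and the deposited change of 1.69 passed (adjusted p = 0.0437, limma), while the relative change of 0.71 did not (adjusted p = 0.700, limma).

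The enzymes on either side of squalene differed in the sign of their estimated change, a difference that was not tested. Fdft1, squalene synthase, rose on the deposited scale and had the largest deposited change of the 6 members. Fdft1 (ENSMUSG00000021273, chr14:63145150-63179578, minus strand) was measured at 8.55, 5.93, 0.53 and 0 CPM in WT and at 19.4, 19.1, 10.1, 19.9 and 18.8 CPM in KO. Every KO library exceeded every WT library, as for 18.7% of all genes; 0.0254% had the reverse. WT replicate 4 had no read for Fdft1, which at 3 reads allows up to 2.85 CPM there. The means were 3.75 ± 4.17 CPM (SD, n = 4) and 17.5 ± 4.14 CPM (SD, n = 5). The deposited change was 2.50 (SE 0.65, adjusted p = 0.00875, limma), and the call held when each of the 9 libraries was left out in turn. With the mitochondrial ribosomal RNA left out of the totals the change was 2.13 and the call was lost (adjusted p = 0.113, limma). It was also lost by edgeR with TMM scaling (change 0.79, adjusted p = 0.762) and by DESeq2 (change 0.79, adjusted p = 0.708). An exact two-sided permutation test of the CPM gave p = 0.0159.

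On the relative scale the change of Fdft1 was 1.53 (95% interval 0.05 to 3.01), with an unadjusted p of 0.0436 and an adjusted p of 0.410 (limma). The size rested in part on WT replicate 4, which had no read: without it the relative change was 0.76, and without WT replicate 1 it was 2.26. Values there ran from -4.10 to 0.39 in WT and from -1.02 to 0.18 in KO, so that WT replicate 1 was the highest library of all and WT replicates 3 and 4 the lowest. Fdft1 shares 774 of its 4227 exon bases with Ctsb on the other strand, and the library kit does not mark strand, so reads from that stretch cannot be told apart. Ctsb, a lysosomal protease, was 69.8 ± 29.8 CPM in WT against 154 ± 52.1 CPM in KO. It rose by 1.17 on the deposited scale (adjusted p = 0.0325, limma), with a shift on the relative scale of 0.19 (adjusted p = 0.856, limma). The near copy Gm6781, 97.4% identical to Fdft1 over 1249 bases, had 0 to 0.4 CPM in WT against 3.64 to 7.21 CPM in KO. Its WT mean of 0.1 CPM lay below 1.77 CPM, the lowest mean of any listed gene, so it is listed only through its KO reads. A sum with such a copy leans towards KO and is no independent support for a rise there. Added to Fdft1, Gm6781 gave 3.85 ± 4.25 CPM in WT against 22.8 ± 3.27 CPM in KO. The deposited change of the sum was 2.88 (adjusted p = 0.00438, limma) and its relative change 1.90 (adjusted p = 0.286, limma).

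Sqle (ENSMUSG00000022351, chr15:59315077-59331192, plus strand), squalene epoxidase, is a rate-limiting enzyme of the sterol branch. It had 1.35, 5.14, 11.6 and 19.0 CPM in WT and 1.21, 6.21, 8.66, 5.86 and 3.86 CPM in KO. WT replicates 3 and 4 were the highest of all libraries, and WT replicate 1 and KO replicate 1 were the lowest. The means were 9.27 ± 7.74 CPM (SD, n = 4) and 5.16 ± 2.79 CPM (SD, n = 5). Sqle was the 1 member with a negative deposited change, at -0.49 (SE 0.67, adjusted p = 0.532, limma). Relative to the library median it was -1.47 (95% interval -2.73 to -0.20), with an unadjusted p of 0.0250 and an adjusted p of 0.348 (limma). On that scale every KO library lay below WT replicates 2, 3 and 4, and WT replicate 1 fell among KO. The exact two-sided permutation p was 0.0556 on that scale and 0.325 for the CPM. Over all genes 1.74% had every KO library below every WT library on this scale.

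**Figure D3:**
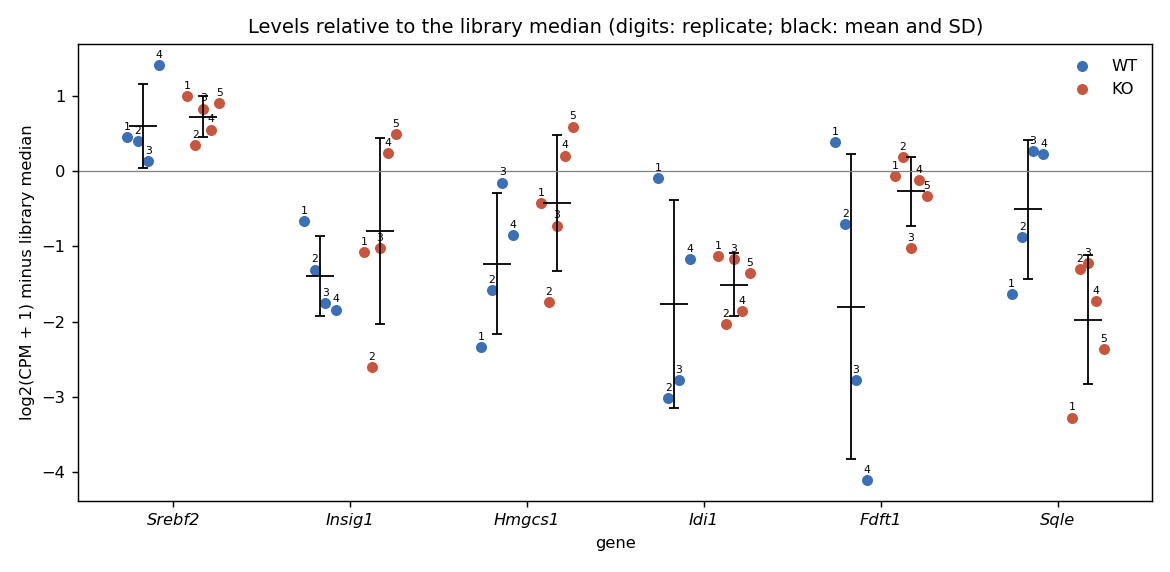
Values of the 6 members relative to the library median (log2), WT in blue and KO in red, 1 point a library numbered by replicate, with the group mean and SD in black. The groups overlap for every member, with the Sqle mean lower in KO and the Fdft1 mean higher.

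Of the 6 listed members, 2 rose on the deposited scale, 33.3%, beside 32.0% of all genes, and none fell. Their median deposited change was 1.40 and the median of all genes 1.10. Relative to the library median no member passed the limma test, 1 had an unadjusted p under 0.05 in each direction, and the median change was 0.43 beside 0.12 over all genes; 11.7% of all genes had such a p, and 50.0% on the deposited scale. On the recovered reads, edgeR with TMM scaling called no member, beside 0.00847% of all genes higher and 0.0339% lower, and DESeq2 called none of the 3 to which it gave an adjusted p (Hmgcs1, Fdft1 and Srebf2), beside 0.357% higher and 1.38% lower. With the deposited totals edgeR called 2 members higher, Fdft1 and Insig1, beside 17.8% of all genes, and 0.161% lower. With limma array weights 5 of 6 were called, beside 46.4% of all genes. Single libraries moved the deposited count. It was 5 without WT replicate 4, beside 50.1% of all genes, and 1 without WT replicate 1, beside 9.27%. It was also 1 without WT replicate 2, KO replicate 3, KO replicate 4 or KO replicate 5. The share of all genes called was not counted in those runs, so these falls cannot be set against it.

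Per kilobase of exon, Srebf2 had the highest mean level in WT, 2.71 ± 2.35 CPM per kb (SD, n = 4), followed by Sqle at 1.67, Hmgcs1 at 1.10, Insig1 at 1.06, Idi1 at 0.958 and Fdft1 at 0.888. In KO the order by level was Insig1 at 5.23 ± 4.27 CPM per kb (SD, n = 5), Srebf2 at 5.01 ± 1.31, Fdft1 at 4.13, Hmgcs1 at 4.07, Idi1 at 2.01 and Sqle at 0.930. Neighbours in either order differed by less than the SD of the higher gene, except Idi1 and Sqle in KO. These orders are descriptions without a test.

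Apart from the pseudocount of 1 CPM, the ratio of each other member to Srebf2 within a library does not depend on scaling between libraries. The log2 ratio of Sqle to Srebf2 averaged -1.11 ± 0.92 over WT (SD, n = 4) against -2.70 ± 1.06 over KO (SD, n = 5). The difference of -1.59 had an exact permutation p of 0.0476, and 0.238 after adjustment over the 5 ratios. For the other 4 genes the KO minus WT difference was 1.40 for Fdft1, 0.68 for Hmgcs1, 0.47 for Insig1 and 0.13 for Idi1, with adjusted exact permutation p-values from 0.503 to 0.841. With a pseudocount of 5 CPM instead of 1, the Sqle ratio fell by 1.28 with no overlap between the groups (exact permutation p = 0.0159, adjusted 0.0794), and the Idi1 difference turned to -0.32.

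Pairs of members had r of either sign across the 9 libraries. Of the 15 pairs of members, 7 had a positive and 8 a negative Pearson r of their relative values, and none passed adjustment over the 15 pairs. The pair farthest from 0 was Sqle and Fdft1, with r = -0.79 (permutation p = 0.0120, adjusted 0.180) and rho = -0.70 (permutation p = 0.0433, adjusted 0.429). It was -0.84 without KO replicate 1 and WT replicate 3, the libraries farthest from the Sqle median, and -0.68 with group means subtracted. It was -0.32 without WT replicates 3 and 4, a pair picked after their values were seen, so the relation rests on those libraries. The highest r was that of Hmgcs1 and Insig1, 0.54 (permutation p = 0.133, adjusted 0.605; rho 0.50, permutation p = 0.178, adjusted 0.569), and 0.70 without KO replicate 5 and WT replicate 1. Values of a pair share the library's depth and the median subtracted.

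**Figure D4:**
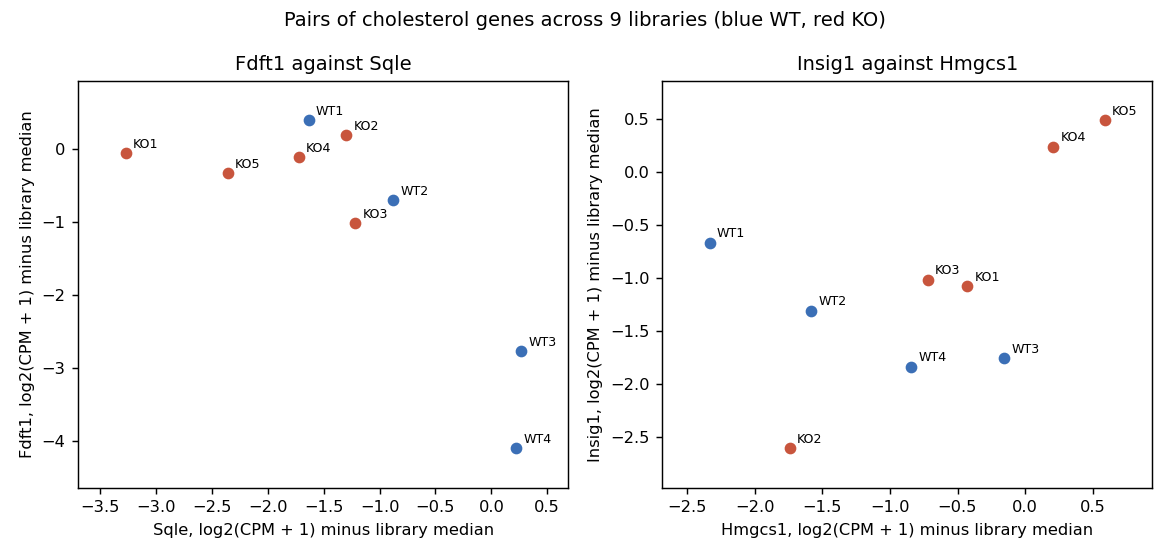
Relative log2 values of Sqle against Fdft1 and of Hmgcs1 against Insig1, 1 point a library, WT in blue and KO in red. WT replicates 3 and 4 lie at high Sqle and low Fdft1, away from the other 7 libraries.

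The other genes of cholesterol metabolism were read from 5 lists that hold 58 genes besides the members, 43 of them listed. Of the 43, 22 rose on the deposited scale, 51.2%, beside 32.0% of all genes, and none fell. Relative to the library median none passed, and the median change was 0.30 beside 0.12 over all genes. On that scale 6 of the 43 had an unadjusted p under 0.05, all higher, beside 11.7% of all genes in both directions together. The direction of that share was not counted, and Acat2, 1 of the 6, is listed only through its KO reads. Single libraries moved the deposited count: it was 6 without WT replicate 1, 13 without WT replicate 2, 11 without WT replicate 3, 11 without KO replicate 3, 14 without KO replicate 4 and 12 without KO replicate 5. Without WT replicate 1, 9.27% of all genes were called. For the other libraries named here, and in the lists below apart from WT replicate 4, that share was not counted. Those counts therefore cannot be read as particular to the cholesterol genes. With the mitochondrial ribosomal RNA reads left out of the library totals none of the 43 was called, and 0.178% of all genes were.

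Mevalonate and isoprenoid enzymes had the highest median change of these lists, 1.91 on the deposited scale and 0.93 on the relative scale over 6 listed genes of 9, members included. Of the 6, 4 rose on the deposited scale, 66.7% beside 32.0% of all genes. When single libraries were left out 2 to 5 did, the lowest without WT replicates 1 or 2 or KO replicate 5. Without WT replicate 1 the share was 33.3%, beside 9.27% of all genes. The highest, without WT replicate 4, was 83.3%, beside 50.1% of all genes. Acat2, the cytosolic thiolase that starts the pathway, was 0.965 ± 0.875 CPM in WT (SD, n = 4) against 15.4 ± 11.4 CPM in KO (SD, n = 5). Its 4 WT libraries ran from 0 to 1.98 CPM and its 5 KO libraries from 6.21 to 34.9 CPM, with no overlap on either scale. It rose by 2.95 on the deposited scale (adjusted p = 0.00496, limma), a call that held when each of the 9 libraries was left out in turn, and its relative change was 1.97 (95% interval 0.64 to 3.30, adjusted p = 0.234, limma). Ggps1, which makes geranylgeranyl diphosphate, had no read in any WT library and 0.36 to 10.0 CPM in KO. Over the pooled reads it was at least 9.90-fold higher when 3 reads are taken as the floor of the WT group. That fold is on the deposited scale, where the median change of all genes was 1.10 in log2. The relative change of Ggps1 was 1.05 (adjusted p = 0.591, limma). The lowest mean of any listed gene was 1.77 CPM, so Ggps1 and Acat2, lower than that in WT, are listed only through their KO reads. Ggps1 lost its deposited call without WT replicates 1, 2 or 3 or KO replicates 1, 2 or 5, with adjusted p from 0.0525 to 0.0923 (limma), and shares 257 exon bases with Arid4b on the other strand. Pmvk, which phosphorylates mevalonate phosphate, had a relative change of -0.02 (adjusted p = 0.993, limma).

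**Figure D5:**
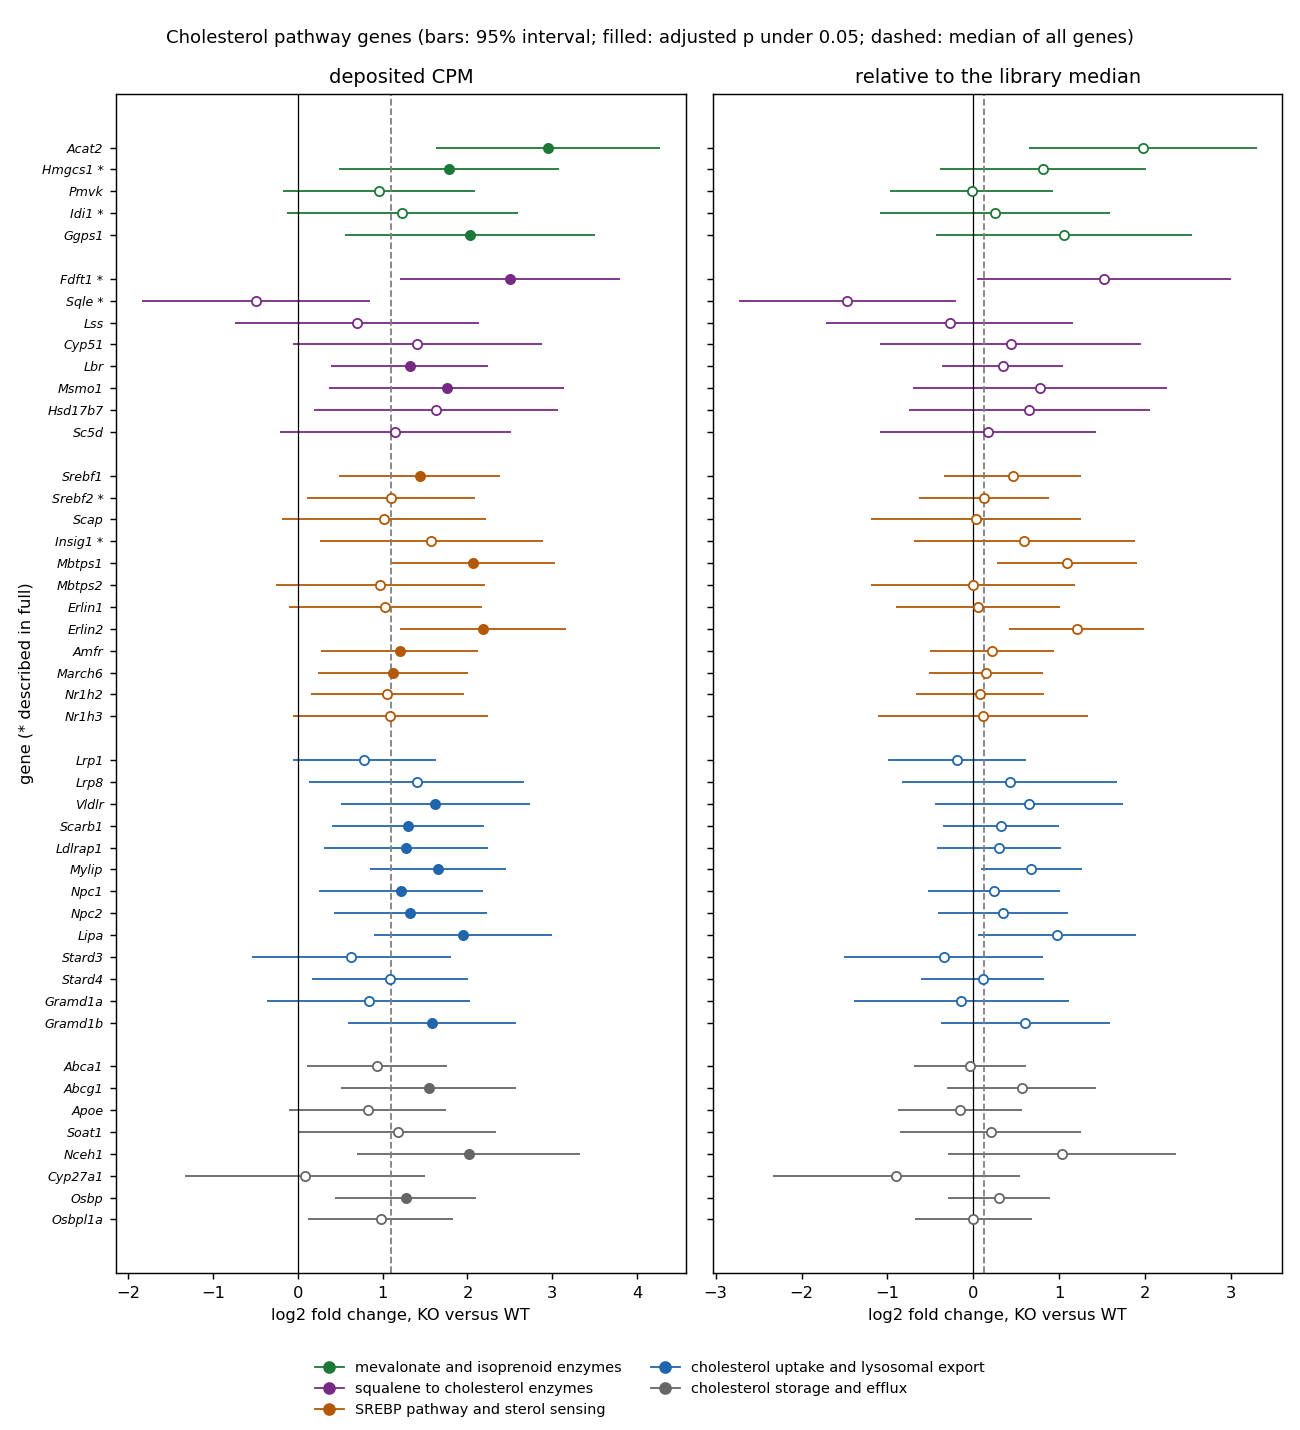
Log2 fold change of KO against WT for 46 of the 49 listed genes of the 5 cholesterol lists (the other 3 are counted but not reported here), with 95% intervals, on the deposited scale (left) and relative to the library median (right); filled points passed the test, the dashed line is the median of all genes, and asterisks mark the 6 members. Filled points, 22 of the 24 genes called in these lists, appear on the left alone.

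In the squalene to cholesterol list 9 of 14 genes were listed and the median relative change was 0.43. Of the 9, 4 rose on the deposited scale, 44.4% beside 32.0% of all genes. The count was 1 without WT replicate 1 (11.1%, beside 9.27% of all genes) or KO replicates 3 or 4. It was 2 without WT replicate 3 or KO replicate 5 and 5 without KO replicate 2. Without WT replicate 4 it was 3 (33.3%, beside 50.1% of all genes). Msmo1, a methylsterol oxidase, was 1.96 ± 2.20 CPM in WT against 7.95 ± 5.80 CPM in KO, with a deposited rise of 1.75 (adjusted p = 0.0461, limma). Lbr, the lamin B receptor, which also reduces sterols, was 36.6 ± 27.5 CPM in WT against 79.1 ± 25.8 CPM in KO, with a deposited rise of 1.32 (adjusted p = 0.0297, limma). The Msmo1 call was lost without any library but WT replicate 3 and KO replicate 2, and the Lbr call without WT replicates 1 or 3 or KO replicates 3, 4 or 5, with adjusted p from 0.0578 to 0.148 (limma).

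In the list of SREBP processing and sterol sensing, 12 of 15 genes were listed and 5 rose on the deposited scale, 41.7% beside 32.0% of all genes. The count was 2 without WT replicate 1 (16.7%, beside 9.27% of all genes) or WT replicate 2, and 3 without WT replicate 3 or KO replicates 3, 4 or 5. Without WT replicate 4 it was 8 (66.7%, beside 50.1% of all genes). Erlin2, a protein of the endoplasmic reticulum that takes part in protein degradation there, was 8.70 ± 2.83 CPM in WT (SD, n = 4) against 41.9 ± 8.96 CPM in KO (SD, n = 5). Its groups overlapped on neither scale; Acat2 and Erlin2 were the 2 of 43 pathway genes of which this was so on the relative scale, beside 2.07% of all genes. Erlin2 rose by 2.18 on the deposited scale (adjusted p = 0.00501, limma), and its relative change was 1.20 (95% interval 0.42 to 1.99, adjusted p = 0.224, limma). Mbtps1, the site-1 protease that makes the first cut in SREBP, was 11.9 ± 5.45 CPM in WT against 54.6 ± 25.3 CPM in KO, with a deposited rise of 2.07 (adjusted p = 0.00598, limma). Its relative change was 1.09 (adjusted p = 0.282, limma). Srebf1, the relative of Srebf2 that acts mainly on fatty acid genes, was 30.7 ± 17.9 CPM in WT against 84.6 ± 51.9 CPM in KO; its deposited rise of 1.44 (adjusted p = 0.0230, limma) was lost without WT replicates 1 or 2 or KO replicate 1, with adjusted p from 0.0554 to 0.113.

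Genes of cholesterol uptake and lysosomal export were listed for 14 of 16, and 8 rose on the deposited scale, 57.1% beside 32.0% of all genes. Single libraries moved this count to 2 without WT replicate 1 (14.3%, beside 9.27% of all genes). They moved it to 4 or 5 without WT replicates 2 or 3 or KO replicates 1, 3, 4 or 5. Without WT replicate 4 it was 11 (78.6%, beside 50.1% of all genes). Mylip, a ubiquitin ligase that limits lipoprotein uptake, ran from 57.3 to 140 CPM in WT and from 230 to 408 CPM in KO; it rose by 1.65 on the deposited scale (adjusted p = 0.00675, limma), with a relative change of 0.68 (adjusted p = 0.354, limma). Lipa, the lysosomal acid lipase, rose from 10.4 ± 6.47 to 39.4 ± 15.8 CPM, by 1.95 on the deposited scale (adjusted p = 0.0101, limma, and 0.0515 without WT replicate 1). Gramd1b, a sterol carrier at membrane contacts, rose by 1.58 (adjusted p = 0.0190, limma), a call lost without WT replicate 2 (0.0747) or KO replicate 1 (0.0550). Lrp1, a large endocytic receptor and the most abundant gene of the list, was 273 ± 87.7 CPM in WT against 511 ± 288 CPM in KO and did not pass on either scale (relative change -0.19, adjusted p = 0.888, limma).

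Storage and efflux genes were listed for 8 of 11, and 3 rose on the deposited scale, 37.5% beside 32.0% of all genes, with a median relative change of 0.10. None was called without WT replicate 1 (beside 9.27% of all genes) or KO replicate 3, 1 without WT replicate 3 and 2 without WT replicate 2 or KO replicate 5. Without WT replicate 4 the count was 6 (75%, beside 50.1% of all genes). Nceh1, a cholesteryl ester hydrolase, was 2.20 ± 2.16 CPM in WT against 9.83 ± 2.92 CPM in KO, and Abcg1, a cholesterol exporter, was 12.9 ± 11.7 CPM in WT against 33.0 ± 9.56 CPM in KO. Nceh1 rose by 2.01 (adjusted p = 0.0227, limma) and Abcg1 by 1.54 (adjusted p = 0.0245, limma) on the deposited scale. Nceh1 lost the call without WT replicate 1 or KO replicates 3 or 5, and Abcg1 without WT replicates 1, 2 or 3 or KO replicate 3, with adjusted p from 0.0508 to 0.0756. Apoe, the most abundant gene of the list, had a relative change of -0.15 (adjusted p = 0.901, limma), and Cyp27a1, a sterol hydroxylase, one of -0.89 (adjusted p = 0.647, limma).

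The fatty acid enzymes under SREBP-1 lay lower than the cholesterol lists on the relative scale, with a median of -0.28 over 11 of 11 listed genes, beside -0.34 over the adipocyte markers and -0.50 over the fibroblast markers. On the deposited scale 1 gene, Fads2, rose, 9.09% beside 32.0% of all genes, and 1 or 2 did when single libraries were left out. Fads2, a desaturase of polyunsaturated fatty acids, had 0 to 0.53 CPM in WT against 2.39 to 13.4 CPM in KO, a deposited rise of 2.60 (adjusted p = 0.00987, limma) with a relative change of 1.63 (adjusted p = 0.315, limma). Its WT mean was below 1.77 CPM, the lowest mean of any listed gene, so it is listed only through its KO reads. Scd1, which makes monounsaturated fatty acids, was 1418 ± 578 CPM in WT against 1613 ± 786 CPM in KO. Its relative change was -0.80 (unadjusted p = 0.0461, adjusted p = 0.417, limma). Fasn, fatty acid synthase, had a change of -0.84 relative to the library median (adjusted p = 0.464, limma). The difference between the fatty acid and cholesterol lists was not tested.

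Markers of several cell types were present in every library. All 16 endothelial markers were listed, none was at 0 in any library, and their summed level ran from 942 to 3304 CPM in WT and from 2907 to 6963 CPM in KO. Of these markers 14 rose on the deposited scale, beside 32.0% of all genes, and all 16 had a relative change above 0, with a median of 0.52; the medians of the 5 cholesterol lists ran from 0.10 to 0.93. The 16 adipocyte markers summed to 3658 to 7570 CPM in WT against 9388 to 21516 CPM in KO, with Cidea the 1 marker at 0 in some library. Fabp4, which capillary endothelial cells of fat also express, made up most of that sum, at 4272 CPM in WT against 11778 CPM in KO. Plin4, another gene of the list, had 410 and 800.0 CPM. Of the 16, 4 rose on the deposited scale, beside 32.0% of all genes. There 12 of 16 had a change above 0, and the median was 0.64 beside 1.10 over all genes. On the relative scale the median was -0.34, with 5 of 16 above 0. Adipoq, the adipokine adiponectin, was 44.3 ± 21.9 CPM in WT against 33.9 ± 13.2 CPM in KO (relative change -1.27, adjusted p = 0.182, limma), and Plin1, a coat protein of the lipid droplet, was 290 ± 109 CPM in WT against 282 ± 204 CPM in KO (relative change -1.17, adjusted p = 0.250, limma). Adipoq and Plin1 were named after their values had been seen. Their deposited changes, -0.29 and -0.20, go against most of their list. Fibroblast markers, 10 of 12 listed, summed to 2996 to 9970 CPM and 2654 to 13625 CPM, and macrophage markers, 12 of 12, to 297 to 1173 CPM and 769 to 1619 CPM, with Mfap5 and Fcgr1 at 0 in some library. Their relative medians were -0.50, with 1 of 10 above 0, and -0.30. Pericyte and smooth muscle markers, 7 of 11, summed to 116 to 242 CPM in WT against 298 to 574 CPM in KO, with a relative median of 0.17.

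Skeletal muscle markers, 9 of 12 listed and none at 0, summed to 102 to 271 CPM in WT against 463 to 8286 CPM in KO, the highest in KO replicate 5. All 9 rose on the deposited scale, beside 32.0% of all genes, and their relative median of 1.83 was above that of every cholesterol list. KO replicate 5 was also the highest library for Hmgcs1, Insig1 and Srebf2, and had the highest library median, 23.92 CPM. Without it the Hmgcs1 deposited change was 1.48 and its call was lost (adjusted p = 0.0962, limma), while the Fdft1 call held. The deposited change of Fdft1, 2.50 without a covariate, was 2.73 with the mean of the adipocyte markers as a covariate (adjusted p = 0.0876, limma), 3.79 with that of the endothelial markers (0.304) and 3.92 with the mitochondrial ribosomal RNA share (0.0370). The part of these cells and of that share in the members' values was not tested further, and in captured bulk RNA a smaller share of cells of a type and less RNA per cell cannot be told apart.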

How the data were processed

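The authors deposited CPM for 11802 genes in 9 libraries. Programs in the submitters' processing notes are HISAT2 2.1.0, Trimmomatic 0.39, FastQC 0.11.9 and R 4.0.2 with edgeR 3.32.0, with mm10 and GRCm38 as builds; how reads were counted, and whether by strand, is not stated there or in the labels. Symbols, exons and coordinates came from GENCODE M21 (GRCm38), which matched 11797 identifiers. In each library at least 99.99% of the deposited CPM were whole multiples of 1 step within 0.1 read, so read counts could be recovered.

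Here limma 3.58.1, run in R 4.3.3 with its trend option, was fitted on log2(CPM + 1), on the deposited scale and after subtracting each library's median, with Benjamini-Hochberg adjustment over all genes and a call at an adjusted p under 0.05. Such fold changes understate the change of low genes. A filter at a mean of 1 CPM removed none, since the lowest mean was 1.77. A gene whose WT mean lies below 1.77 CPM is thus listed only where its KO values are higher. Acat2, Ggps1, Fads2 and the near copies Gm6781 and Gm13502 are such genes. Alternatives on the recovered counts were edgeR 4.0.16, which called 1 gene higher and 4 lower with TMM scaling (0.00847% and 0.0339%) and 2104 higher and 19 lower with the deposited totals (17.8% and 0.161%), and DESeq2 1.42.0, which called 29 higher and 112 lower of 8124 genes with an adjusted p (0.357% and 1.38%). For a single gene or ratio an exact two-sided permutation test was used, whose smallest possible p is 0.00794 for 4 against 5 libraries. Near copies were found with blastn 2.17.0 among transcripts, at 95% identity over 100 bases. The scripts were tested on simulated data.

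The members, lists and tests were chosen with earlier results of these data known. The named genes are the members, Mfn2, from each pathway list the 3 genes with the smallest relative p and the 1 with the highest mean, and the 6 genes most like the members across libraries; some of these genes are counted with their lists but not reported here. Same-numbered WT and KO libraries did not deviate together, so the comparison was unpaired. Labels give no batch.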

Additional observations from a re-analysis of the deposited data

Results flagged for a closer look

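In 9 of 54 gene and group combinations checked, 1 library stood apart from the others of its group by Dixon's criterion at the 95% level. For independent, normally distributed values about 1 in 20, or 2.7, would do so. CPM on few reads need not be normal and the combinations share the same 9 libraries, so that rate is a rough guide only. Among the members, Srebf2 stood apart in WT replicate 4, the highest WT library at 44.66 CPM, and Fdft1 in KO replicate 3, the lowest KO library at 10.1 CPM. Insig1 stood apart in WT replicate 3, the lowest WT library at 2.1 CPM on 4 reads. The 95% counting interval of that Insig1 value, 0.572 to 5.38 CPM, covers the values of the other WT libraries. Among the other pathway genes, WT replicate 4 was high for Abcg1 at 30.41 CPM and WT replicate 1 low for Erlin2 at 4.5 CPM. KO replicate 1 was high for Gramd1b at 97.74 CPM and for Cyp27a1 at 26.41 CPM, KO replicate 4 was high for Msmo1 at 18.16 CPM, and KO replicate 5 was high for Scd1 at 3015.68 CPM. The cause of these values was not tested.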

How the results depend on the processing

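On the relative scale 0 of 6 members and 0 of 43 pathway genes were called under every alternative run. On the deposited scale the counts, 2 and 22, were 0 and 0 with the adipocyte or endothelial covariate or the mitochondrial ribosomal RNA left out. They were 1 and 0 with that RNA's share as covariate, 5 and 25 with array weights, and 2 and 14 without the trend. By edgeR with the deposited totals they were 2 and 12. Quantile normalisation, edgeR with TMM and DESeq2 gave 0 and 0. Each of these replaces the deposited scaling, so 1 run of each was set against both scales. The share of all genes called was not counted without the trend, nor with the replicate block below. DESeq2 gave an adjusted p to 3 of the 6 members and 31 of the 43. Leaving out single libraries gave 1 to 5 members and 6 to 28 pathway genes. With the replicate number as a block they were 1 and 13, and the ratios to Srebf2 were 0.48 for Hmgcs1, -1.45 for Sqle, 0.20 for Insig1, 0.14 for Idi1 and 1.46 for Fdft1; the numbers do not pair the libraries (r from -0.04 to 0.04 within numbers). The ratios ranged over left-out libraries from 0.37 to 1.20 for Hmgcs1, from -1.92 to -1.18 for Sqle, from 0.05 to 0.83 for Insig1, from -0.22 to 0.74 for Idi1 and from 0.36 to 2.18 for Fdft1; the Idi1 ratio was -0.32 with a pseudocount of 5. The edgeR run with deposited totals, the run without mitochondrial ribosomal RNA and the summed near copies were chosen after seeing the data. The member counts at pseudocounts of 0.5 and 5, a filter at 5 CPM and summed near copies were 2, 3, 2 and 3. The summed copies are listed only through their KO reads, so the last of these counts leans towards KO. At 0 to 22 reads a member in WT libraries other than Srebf2, small changes were not detectable. Some log2 changes of single genes turned sign; the cause was not tested. With quantile normalisation the change was -0.043 for Idi1, -0.038 for Pmvk, -1.10 for Cyp27a1, -0.35 for Scd1, -0.55 for Fasn and -0.17 for Mfn2, against deposited rises. Set against the relative scale, the same run turned the sign of Idi1, of Lrp1 (0.022) and of Apoe (0.12). With array weights the deposited change was -0.16 for Scd1 and -0.052 for Fasn. There the relative change was 0.079 for Pmvk. With the replicate block the deposited change was -0.078 for Scd1 and -0.0074 for Fasn. On the relative scale it was 0.011 for Lrp1 and -0.073 for Stard4. By edgeR with TMM the change was -0.061 for Idi1, -0.046 for Pmvk, -0.11 for Lrp1, -0.55 for Cyp27a1 and -0.32 for Apoe. It was -1.02 for Scd1, -0.94 for Fasn and -0.17 for Mfn2, all against deposited rises. Set against the relative scale, the same run turned the sign of Idi1. By DESeq2 the change was -0.072 for Idi1, -0.038 for Pmvk, -0.11 for Lrp1, -0.57 for Cyp27a1 and -0.32 for Apoe. It was -1.01 for Scd1, -0.93 for Fasn and -0.16 for Mfn2, again against deposited rises. Here too the sign of Idi1 turned against the relative scale. With the adipocyte covariate the deposited change was -0.65 for Cyp27a1, -0.097 for Scd1 and -0.83 for Fasn. On the relative scale it was -0.0067 for Srebf2, 0.0036 for Pmvk, 0.27 for Lrp1, -0.099 for Stard4 and 0.26 for Mfn2. With the endothelial covariate the deposited change was -0.078 for Hmgcs1, -0.24 for Srebf2, -0.52 for Pmvk, -0.36 for Lbr, -0.22 for Cyp27a1, -0.46 for Apoe, -0.16 for Scd1, -0.47 for Fasn and -0.35 for Stard4. Relative values there were -0.11 for Insig1, -0.14 for Srebf2, -0.18 for Lbr, 0.70 for Lrp1, -0.41 for Stard4 and 0.18 for Mfn2. With the mitochondrial ribosomal RNA covariate the deposited change was -0.086 for Srebf2, -1.33 for Cyp27a1, -0.26 for Apoe and -0.059 for Fasn. There the relative change was -0.030 for Hmgcs1, -0.45 for Srebf2, -0.28 for Lbr, 0.41 for Lrp1, -0.16 for Stard4 and 0.067 for Mfn2. With mitochondrial ribosomal RNA left out the deposited change was -0.38 for Cyp27a1, -0.42 for Scd1 and -0.46 for Fasn. With a pseudocount of 5 the relative change was -0.17 for Idi1, 0.015 for Lrp1 and 0.057 for Apoe. Over left-out libraries the deposited change ran from -0.44 to 0.61 for Cyp27a1, -0.12 to 0.57 for Fasn and -0.078 to 0.40 for Scd1. Likewise the relative change ran from -0.16 to 0.81 for Idi1, -0.24 to 0.22 for Pmvk, -0.44 to 0.059 for Mfn2, -0.029 to 0.40 for Srebf2, -0.073 to 0.30 for Stard4, -0.46 to 0.11 for Apoe and -0.45 to 0.011 for Lrp1.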

Other observations

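Beyond the members themselves, the genes whose relative values followed the mean standardised profile of the 6 members most closely over the 9 libraries were Prpf18 (Pearson r 0.91), Stard4 (0.90), S100a16 (0.88), Arhgap18 (0.88), Ubr1 (0.87) and Otud4 (0.86), among 4760 genes with a mean of at least 20 CPM. Over all of these genes the median r was 0.07 and the 95th percentile 0.65. Stard4, a cytosolic sterol carrier, is itself one of the uptake and export genes; it was 29.0 ± 15.1 CPM in WT (SD, n = 4) against 64.2 ± 31.9 CPM in KO (SD, n = 5), a shift on the relative scale of 0.11 (adjusted p = 0.931, limma). Prpf18 encodes a splicing factor and had 21.2 to 68.4 CPM in WT against 50.2 to 128 CPM in KO, and Ubr1, a ubiquitin ligase, had 11.6 to 30.4 CPM in WT against 15.3 to 64.6 CPM in KO. The 43 other cholesterol genes had a median r of 0.05 with the members' profile. These correlations share the libraries' depth and median and are given without a test.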
